A study of Arabidopsis thaliana and Zea mays with 12 samples.

Results

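Cytochrome P450 genes of Arabidopsis thaliana were compared between leaf samples of the phenotype labelled Br and of the phenotype labelled Ag. Members were taken as every probe set of the ATH1 array that the platform annotation assigns to exactly 1 gene whose symbol is CYP, at least 2 digits and a letter. This gave 23 genes, each read by 1 probe set, of 13356 genes with a probe set of their own and of 22746 probe sets on the array without the manufacturer's controls. Of the 23, 19 belong to the subfamily CYP71B. The other 4 are CYP51G2, CYP78A9, CYP79A2 and CYP84A4, each alone in its subfamily here. The members are the P450 genes that this annotation names by such a symbol, not the whole P450 family of the plant.

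There were 3 arrays of Br and 3 of Ag, called biological replicates in the labels. Plants were grown from seed for 2 weeks in both groups and harvested around midday of their photoperiod. No treatment is named, and the labels give no meaning for Ag or Br beyond calling them phenotypes. Each array carried RNA pooled over replicated plants, so p-values measure the spread between pools. In such tissue RNA, fewer cells of a type and less RNA per cell cannot be told apart. The series also holds maize arrays of another platform, which were not used here.

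Cytochrome P450 enzymes are haem proteins, most of them anchored in the endoplasmic reticulum, that insert 1 atom of molecular oxygen into small molecules with electrons from a P450 reductase. Plants have large P450 families. Their enzymes make and break down hormones, sterols, pigments, lignin precursors, wax and many defence compounds. A name gives the family as a number, the subfamily as a letter and then the gene. CYP71 is a large plant family, and its CYP71B genes in Arabidopsis lie largely in tandem runs of duplicated copies. The best known CYP71B enzyme, PAD3, completes the synthesis of the defence compound camalexin, and most other CYP71B genes have no settled reaction.

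The median probe set read 35.3 to 37.5 on the Br arrays and 32.3 to 35.8 on the Ag arrays, and with 3 arrays a group their small number sets the precision. The leaf genes RCA, LHCB4.1 and PSAE-1, for Rubisco activase and for parts of the photosystems, read between 4237 and 5417 in Br and between 4553 and 7185 in Ag and so were abundant in both groups. They were the 3 measured of 11 listed leaf markers. Their summed deposited signal ran from 13721 to 14983 in Br and from 15900 to 20097 in Ag, without overlap, while after quantile normalization their log2 changes lay between -0.017 and 0.056 (limma adjusted p of at least 0.88). The part of this gap in the P450 results was not tested beyond the fits with other scalings. Of 12 root markers 2 were measured. EXPA7, a root hair expansin, read 3.09 to 15.6 in Br and 6.79 to 17.0 in Ag. PYK10, a beta-glucosidase abundant in roots, read 65.9 to 438 in Br and 163 to 236 in Ag. The sum of the 2 root markers ran from 81.5 to 442 in Br and from 170 to 253 in Ag, so it overlapped. Of 11 epidermis and stomata markers 3 were measured, summing to between 77.0 and 96.1 in Br and between 48.0 and 79.2 in Ag. None of 9 flower and pollen markers had an annotated probe set. The 3'/5' signal ratio of the ubiquitin control, a sign of RNA quality, was 1.04 ± 0.15 in Br and 2.04 ± 0.30 in Ag (SD, n = 3), with no shared range (exact permutation test, two-sided, p = 0.10, which is the lowest possible with 3 arrays a group). The actin ratio was 1.53 ± 0.29 in Br and 2.06 ± 0.25 in Ag, also without overlap (exact permutation p = 0.10). The GAPDH ratio was 0.77 ± 0.043 in Br and 0.86 ± 0.062 in Ag and overlapped (exact permutation p = 0.20). The array holds another control pair for each of these transcripts; of all 6 pairs, 4 had no overlap and 2 overlapped, the other being actin at 4.73 to 9.88 in Br and 9.71 to 12.5 in Ag. The mean ratio was lower in Br for all 6. On the first principal component the first Br array lay at 5.57, apart from the other Br arrays at 34.5 and 42.6, with the Ag arrays between -32.8 and -24.6. The part of RNA quality and of the first Br array in the differences below was not tested, apart from the values without single arrays.

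Of the 23 P450 genes, 1 rose and 2 fell in Br, and 20 did not pass the test. CYP71B24 rose and CYP71B23 and CYP71B37 fell. All 3 belong to CYP71B and lie in the same run of loci on chromosome 3. The 3 calls are 13.0% of the members, where 2.08% of all probe sets were called (0.963% higher and 1.12% lower in Br). The threshold was a limma adjusted p of 0.05, adjusted over all 22746 probe sets. Changes are on the scale log2(intensity + 16) after quantile normalization, Br minus Ag, and understate the change of dim probe sets. Signals are the deposited intensities.

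**Figure D1:**
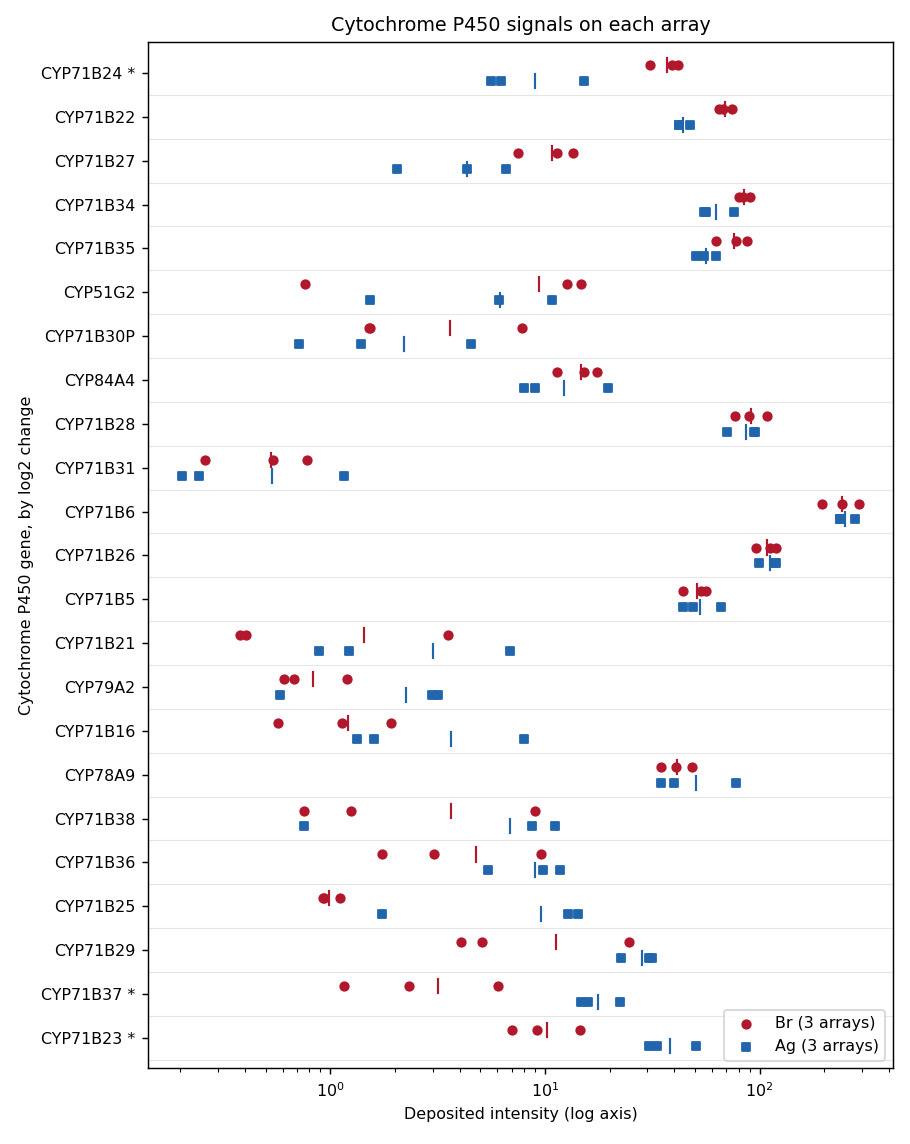
Deposited intensity (log axis) of the 23 cytochrome P450 genes on each of the 3 Br arrays (red circles, upper row of each gene) and the 3 Ag arrays (blue squares, lower row), with vertical ticks at the group means. Genes run from the highest log2 change at the top to the lowest at the bottom, and asterisks mark the 3 genes past an adjusted p of 0.05, whose Br and Ag points do not overlap.

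CYP71B24 (AT3G26230) read 41.6, 38.9 and 30.9 on the Br arrays, against 15.1, 6.24 and 5.61 on the Ag arrays. Every Br array lay above every Ag array, and the first Ag array was the highest of its group. The mean was 37.1 ± 5.57 in Br and 9.00 ± 5.33 in Ag (SD, n = 3). The log2 change was 1.04 ± 0.16 (SE; limma adjusted p = 0.024). Its probe set exceeded the median of its own array on 2 of 6 arrays, so the Br signal is near the middle of the array, and without detection calls the Ag signal cannot be told from background.

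CYP71B23 (AT3G26210) read 9.16, 7.05 and 14.5 on the Br arrays, against 33.1, 30.5 and 50.5 on the Ag arrays. The groups did not overlap, and the array numbered 3 was the highest in both. Its mean was 10.2 ± 3.83 in Br and 38.1 ± 10.8 in Ag, and the log2 change was -1.10 ± 0.17 (limma adjusted p = 0.027). This probe set exceeded the median of its own array on 1 of 6 arrays, and its Br signal cannot be told from background. CYP71B24 and CYP71B23 thus moved in opposite directions although they are near neighbours, with 1 annotated gene between them.

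CYP71B37 (AT3G26330), at the other end of the run, read 6.05, 1.16 and 2.32 on the Br arrays, against 22.4, 15.8 and 14.7 on the Ag arrays. The first array was the highest in each group, and the groups did not overlap. Its mean was 3.18 ± 2.56 in Br and 17.7 ± 4.14 in Ag. The log2 change was -0.87 ± 0.14 (limma adjusted p = 0.028). This probe set lay under the median of its own array on all 6 arrays, and its Br signal too cannot be told from background.

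The 3 calls depended on the arrays kept. Without the second or the third Br array, or without the second or the third Ag array, limma called none of the 23, and 4 to 6 of them had an unadjusted p under 0.05, beside 11.6% to 13.5% of all probe sets. Adjusted p then ran from 0.064 to 0.12 for CYP71B24, from 0.076 to 0.13 for CYP71B23 and from 0.085 to 0.12 for CYP71B37. Without the first Ag array, CYP71B24 alone passed (adjusted p = 0.036), while CYP71B23 and CYP71B37 stood at 0.057 and 0.088. Without the first Br array all 3 passed, at adjusted p between 0.023 and 0.044. The log2 change itself moved little: it stayed between 0.95 and 1.17 for CYP71B24, between -1.19 and -0.94 for CYP71B23 and between -0.96 and -0.81 for CYP71B37 when any one array was left out. The number of calls over all probe sets, 473 with all 6 arrays, was 884 when the first Br array was dropped and between 105 and 237 when any other array was. A pseudocount of 1 in place of 16 gave log2 changes of 1.90, -1.93 and -2.47 for CYP71B24, CYP71B23 and CYP71B37 and left none past the threshold (limma adjusted p = 0.065, 0.054 and 0.072), while 7 of the 23 had an unadjusted p under 0.05, beside 13.4% of all probe sets.

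**Figure D2:**
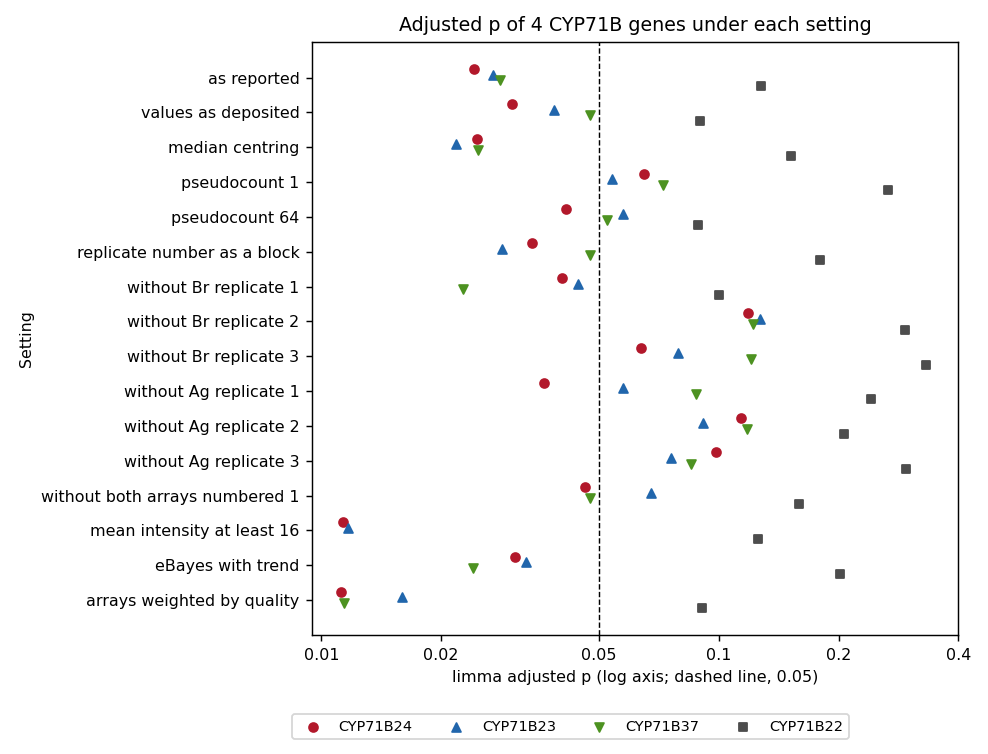
limma adjusted p (log axis) of CYP71B24, CYP71B23, CYP71B37 and CYP71B22 as reported and under each alternative setting, with the threshold of 0.05 as a dashed line. The first 3 genes cross the line when an array numbered 2 or 3, of Br or of Ag, is left out or the pseudocount is 1, and CYP71B22 lies right of it throughout; CYP71B37 has no point where probe sets of mean intensity under 16 are removed.

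The position of the members was not used to choose them, but the runs were not among the planned groupings. Whether calls gather in a run was not tested, and the first run holds 11 of the 23 members. The run from CYP71B16 (AT3G26150) to CYP71B37 (AT3G26330) holds 25 genes in the TAIR10.1 gene table, of which 18 have a P450 symbol. Of these 18, 11 are members, and the other 7 have no probe set of their own in the annotation used. The 3 called genes were among these 11, and 6 of the 11 had Br and Ag signals without overlap, 3 higher and 3 lower in Br. The median log2 change of the 11 was -0.11, with 4 positive and 7 negative values. Over all probe sets, 20.7% had signals without overlap (12.1% higher and 8.67% lower in Br), and the median log2 change was -0.0018.

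Only CYP71B23, CYP71B24 and CYP71B37 passed the test in this run, and the signs of the other 8 are given as values. CYP71B16 and CYP71B21 were dim in both groups, with means of at most 3.65, and had log2 changes of -0.18 and -0.11. Next come CYP71B22, with a positive change, CYP71B23, which fell, and CYP71B24, which rose. After 6 further annotated genes, CYP71B25 had a negative change, and after it CYP71B26 was close to 0. The adjacent CYP71B34 and CYP71B35 had positive changes and the adjacent CYP71B36 and CYP71B37 negative ones. The nearest genes outside the run with a probe set of their own were AT3G26140 and AT3G26350. AT3G26140 had a log2 change of -0.016 (limma adjusted p = 0.97) and AT3G26350 one of 0.025 (adjusted p = 0.98). Both were dim, at 9.28 to 13.9 and 2.05 to 14.7 over the 6 arrays, under the array medians. The log2 scale understates changes at such signals, so these values do not show that the 2 genes were unchanged. No gene inside the run other than the P450 members had a probe set of its own.

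**Figure D3:**
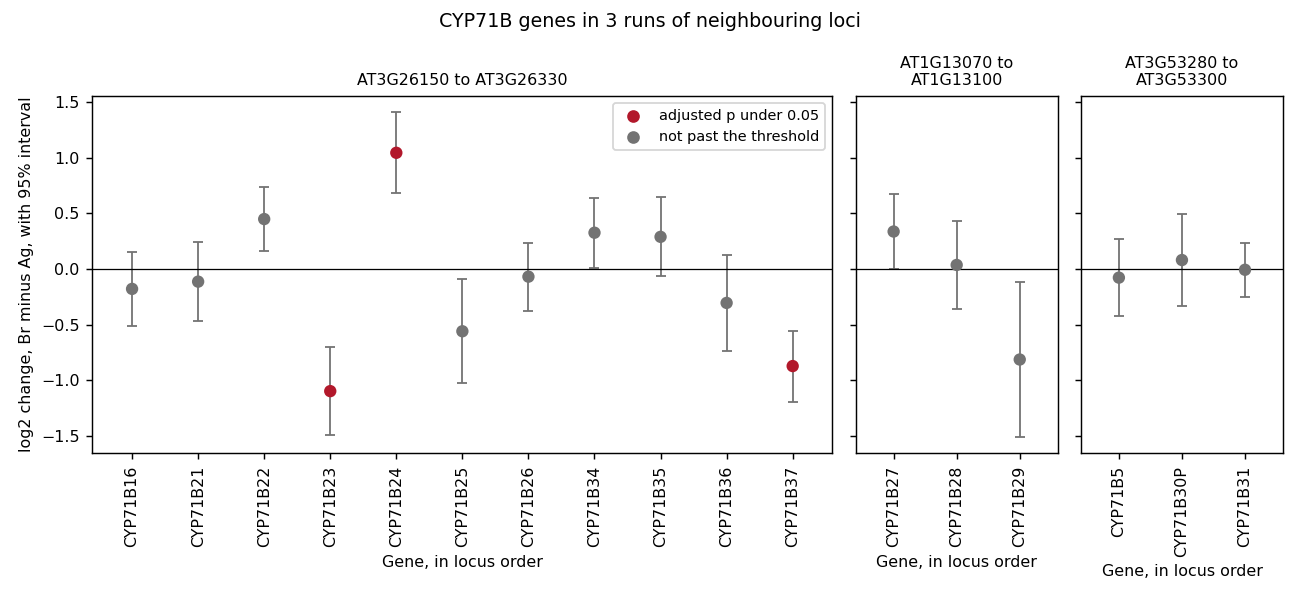
log2 change (Br minus Ag, on the log2(intensity + 16) scale, with 95% interval from the limma fit) of the CYP71B genes in 3 runs of neighbouring loci, each in locus order and not to scale. In the run on the left, the called genes (red) are CYP71B23 at -1.10, CYP71B24 at 1.04 and CYP71B37 at -0.87; no gene of the other runs passed the test.

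CYP71B22 (AT3G26200), next to CYP71B23 in that run, was the gene nearest to the threshold without passing it. It read 64.7, 67.4 and 74.7 on the Br arrays, against 42.1, 47.6 and 42.0 on the Ag arrays. All Br values lay above all Ag values with little spread in either group. The log2 change was 0.45 ± 0.12 (SE, n = 3 per group; limma adjusted p = 0.13), with a 95% interval from 0.16 to 0.73, and on all 6 arrays the signal was above the array's median. It did not pass in any of the 15 alternative settings (adjusted p from 0.089 to 0.33).

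CYP71B34 (AT3G26300) read 90.6, 84.0 and 80.1 on the Br arrays, against 75.8, 55.1 and 56.1 on the Ag arrays. The groups did not overlap, but the first Ag array came close to the Br values. Its log2 change of 0.33 did not pass (limma adjusted p = 0.30, 95% interval 0.011 to 0.64). The adjacent CYP71B35 (AT3G26310) read 62.5, 87.4 and 77.7 in Br, against 50.6, 55.0 and 62.8 in Ag, and here the lowest Br array fell just below the highest Ag array (log2 change 0.29, adjusted p = 0.41).

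CYP71B25 (AT3G26270) was near the floor in Br, at 0.94, 1.11 and 0.92, against 14.2, 1.75 and 12.8 in Ag. The second Ag array was almost as low as the Br arrays, and the other 2 Ag arrays carry the difference. The log2 change was -0.56 ± 0.20 (adjusted p = 0.23). It was -0.81 (adjusted p = 0.080) without the second Ag array and -0.44 (adjusted p = 0.45) without the third. CYP71B36 (AT3G26320) read 3.04, 9.60 and 1.75 in Br, against 9.80, 5.41 and 11.7 in Ag, and the groups overlapped (log2 change -0.31, adjusted p = 0.48). CYP71B26 (AT3G26290) was well above the array medians and nearly equal in both groups, at 109 ± 11.9 in Br and 112 ± 10.8 in Ag (SD, n = 3). Its log2 change was -0.069, with a 95% interval from -0.37 to 0.24 (adjusted p = 0.86).

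The second run, from CYP71B27 (AT1G13070) to CYP71B29 (AT1G13100) on chromosome 1, holds 5 annotated genes, of which 4 have a P450 symbol and 3 are members. CYP71B29 read 5.09, 24.8 and 4.07 on the Br arrays, against 22.7, 31.5 and 30.5 on the Ag arrays. The first and the third Br array were far below Ag, while the second lay within the Ag range. Its log2 change of -0.81 ± 0.30 was close in size to that of CYP71B37 but did not pass (limma adjusted p = 0.24, 95% interval -1.51 to -0.12), and without the second Br array it was -1.16 (adjusted p = 0.072). CYP71B27, annotated as a transcribed pseudogene, read 11.4, 7.50 and 13.6 in Br, against 2.05, 4.32 and 6.57 in Ag. These signals did not overlap, but all 6 were under the array medians (log2 change 0.34, adjusted p = 0.31). CYP71B28 read 91.3 ± 16.1 in Br and 86.5 ± 13.8 in Ag, with a log2 change of 0.036 and a 95% interval from -0.36 to 0.43.

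The third run, from CYP71B5 (AT3G53280) to CYP71B31 (AT3G53300) on chromosome 3, holds 5 annotated genes, 3 of them P450 genes and all 3 members. Log2 changes there ran from -0.078 to 0.080. Limma called none of the 3, beside 2.08% of all probe sets. For 0 of the 3 was the unadjusted p under 0.05, beside 16.1% of all probe sets. CYP71B5 was above the median on all 6 arrays, at 51.3 ± 6.41 in Br and 52.9 ± 11.5 in Ag. CYP71B30P, named as a pseudogene but annotated as protein coding in the gene table used, had means of 3.61 in Br and 2.21 in Ag. CYP71B31, whose enzyme oxidises the monoterpene linalool in flowers, had the lowest signals of the 3, with means of 0.53 in Br and 0.54 in Ag.

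The remaining 2 CYP71B genes lie outside these runs. CYP71B6 (AT2G24180), whose enzyme converts indole-3-acetonitrile, a nitrile of indolic defence metabolism, read 290, 241 and 194 on the Br arrays, against 238, 237 and 277 on the Ag arrays. The Br arrays enclosed the Ag range, with the first highest and the third lowest. The log2 change was -0.041 ± 0.16 (limma adjusted p = 0.95, 95% interval -0.43 to 0.35). CYP71B38 (AT3G44250) was dim and scattered, at 0.75, 8.94 and 1.24 in Br, against 0.76, 11.1 and 8.73 in Ag (log2 change -0.27, adjusted p = 0.69).

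Limma called none of the 4 members outside CYP71B, beside 2.08% of all probe sets. For 0 of the 4 was the unadjusted p under 0.05, beside 16.1% of all probe sets. In each of the 4 the groups overlapped, while 20.7% of all probe sets had no overlap. Counts of 0 among 4 genes do not set them apart from the probe sets at large. CYP78A9, of a family that promotes growth of floral organs and fruit, read 41.0, 48.5 and 34.5 in Br, against 39.8, 34.8 and 77.7 in Ag. The third Ag array stood above the other 5, and without it the log2 change of -0.24 became 0.027. CYP84A4, of the arabidopyrone pathway, a side branch of phenylpropanoid metabolism, averaged 14.7 ± 3.07 in Br and 12.2 ± 6.48 in Ag. Its log2 change was 0.071, with a 95% interval from -0.31 to 0.45. CYP79A2, which turns phenylalanine into the aldoxime of benzyl glucosinolate synthesis, had means of 0.83 in Br and 2.25 in Ag, both near the floor of the array. CYP51G2, a copy of the sterol demethylase gene annotated as a transcribed pseudogene, read 12.7, 0.76 and 14.7 in Br, against 1.53, 6.08 and 10.8 in Ag, with the second Br array far below the others (log2 change 0.084, adjusted p = 0.93).

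By role, 13 lists of P450 enzymes were drawn up, from hormone and sterol metabolism to cutin and pigments. Only 6 lists had a measured member, 1 each: phenylpropanoid, glucosinolate, indole and camalexin, sterol, terpene and organ growth. Limma called 0 of these 6 genes, beside 2.08% of all probe sets. The 7 lists without a measured member were jasmonate, brassinosteroid, gibberellin, abscisic acid, cytokinin, carotenoid, and fatty acid and cutin. P450 reductases, cytochrome b5 and P450 genes known by function names had no measured member either. The other 17 members, including all 3 called genes, are CYP71B genes without a role in these lists.

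Signal level differed widely between probe sets, and since probes bind with different strength it does not rank transcripts. On all 6 arrays 7 members, all CYP71B, lay above the array's median: CYP71B5, CYP71B6, CYP71B22, CYP71B26, CYP71B28, CYP71B34 and CYP71B35. Their log2 changes ran from -0.078 to 0.45. Limma called none of the 7, beside 2.08% of all probe sets, which with 7 genes does not set them apart. Of the 7, 2 had an unadjusted p under 0.05. So did 16.1% of all probe sets, and 3078 of the 14642 probe sets with a mean of at least 16. By contrast, 13 members lay at or below the median on all 6 arrays. At a mean of at least 16, 11 members remained. Of these, CYP71B24 and CYP71B23 were called, 18.2% of them, beside 3.04% of all probe sets with such a mean. Both pass this cut-off only through their higher group. The mean was 9.00 for CYP71B24 in Ag and 10.2 for CYP71B23 in Br. The 18.2% therefore does not describe genes with signal above the cut-off in both groups. The median log2 change was -0.069 over the 23 members and -0.0018 over all probe sets, with 9 positive and 14 negative values among the members. Signals without overlap were found in 7 of the 23 (30.4%), 4 higher and 3 lower in Br, beside 20.7% of all probe sets.

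**Figure D4:**
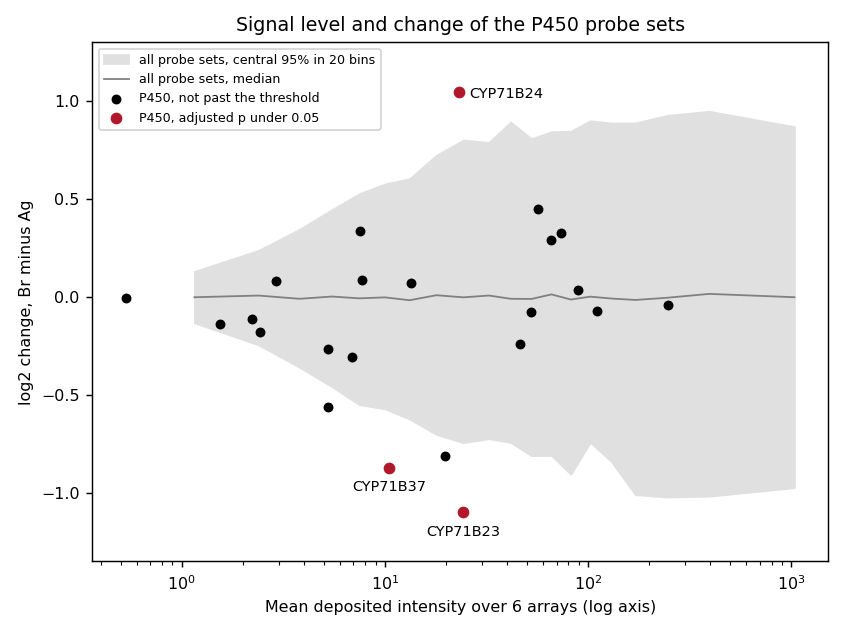
log2 change (Br minus Ag, on the log2(intensity + 16) scale) against the mean deposited intensity over the 6 arrays (log axis) for the 23 P450 genes, over the central 95% (grey band) and the median (grey line) of all probe sets in 20 bins of signal. The 3 called genes (red) lie outside the band at their signal, and so do CYP71B29 (-0.81) and CYP71B25 (-0.56), which did not pass the test.

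All 23 probe set names end in the suffix that the manufacturer gives to probe sets designed for a single transcript. A further 2 probe sets list a P450 gene together with another gene and were left out. CYP71B copies resemble each other, and neither cross-hybridisation between copies nor a sequence difference between Br and Ag plants under the probes was tested. That limit holds for the 3 called genes in particular, each read by 1 probe set.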

How the data were processed

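The authors deposited 1 linear intensity per probe set and array. Every array's mean over all probe sets, without the lowest and highest 2%, is 100, so the authors had scaled the arrays before deposit. The software that summarised the probes is not given in the sources used here, and neither detection calls nor scanner files were used. Of the deposited columns, 0 lacked a sample. Control probe sets (64) were removed. Values were taken as log2(intensity + 16). Column medians ranged from 5.59 to 5.74, so quantile normalization was applied, and all 22746 probe sets were fitted with limma 3.58.1 in R 4.3.3 (lmFit, eBayes, two-sided, Benjamini-Hochberg over all, threshold 0.05). Plots used matplotlib 3.10.9.

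On simulated arrays of 22746 probe sets with 200 changed, the fit recovered 34% of 2-fold and 84% of 4-fold changes. There were 3 false calls among 121. Planted probe sets were brighter than the median, so these shares do not cover dim ones. Noise was drawn independently for each probe set and array. Neither the shares nor the false calls therefore cover deviations that many probe sets of an array share.

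All 23 members matched the TAIR10.1 gene table, which was used for names, gene type and gene order only. The members and lists were chosen with earlier results of these data known. Text values cover every called gene, the largest changes without overlap, the 8 probe sets of highest signal, the role list members and the genes nearest the threshold, with the remaining members added for completeness. Alternatives covered scaling, pseudocount, dim probe sets, the variance model, array weights, the replicate number as a block, the threshold, the probe set kept and each array left out.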

Additional observations from a re-analysis of the deposited data

How the results depend on the processing

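The 3 P450 calls were the same genes with values as deposited, with median centring, with a variance trend, with arrays weighted by quality and without the first Br array. The count was 0 with a pseudocount of 1 or a threshold of 0.01, each by limma with 7 members at an unadjusted p under 0.05 (beside 13.4% and 16.1% of all probe sets). It was 1 with a pseudocount of 64 (CYP71B24, adjusted p = 0.041). It was 2 without both arrays numbered 1, where CYP71B23 did not pass (limma adjusted p = 0.067). The count was also 2 without dim probe sets, where CYP71B37 was removed before the fit and so was not tested. Without single arrays it ran from 0 to 3. Over all probe sets the count was 148 with a pseudocount of 1, 889 with weighted arrays and 111 at a threshold of 0.01, and it ran from 105 to 884 without single arrays. Each gene had 1 probe set, so the choice between probe sets changed nothing. Titles number the arrays 1 to 3 in both groups. Same-numbered arrays deviated from their group means with correlations of 0.32, 0.029 and 0.11, and 3 of the 6 arrays correlated best with their own number, so the numbers were not taken as pairs. With the replicate number as a block, 3 P450 genes and 347 probe sets passed, and the median log2 change over the P450 genes stayed at -0.069. In the 13 settings it was computed under, that median ran from -0.11 with median centring to -2.8e-05, in effect 0, without the third Ag array. The sign of the change was the same in every setting for 13 of the 23 genes, the 3 called ones included, while 10 genes that never passed changed sign in at least 1 setting. Where fewer arrays were fitted, fewer degrees of freedom were left. The causes of a lost call were not tested. With 3 arrays per group and dim signals, a change that did not pass is not shown to be absent.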
